A study of Mus musculus with 20 samples.

Results

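The DnaJ and heat shock chaperone genes were followed in mouse serotonin neurons. The genes were taken by symbol: the J-domain co-chaperones (Dnaja, Dnajb and Dnajc), the heat shock proteins (Hsp90, Hspa, Hspb, Hspd, Hspe and Hsph) and the chaperonin subunits Cct2 to Cct8. This rule found 83 genes of 22556 in the table of developmental stages, and the same 83 in both knockout tables. They were 11 Hsp70 genes, 3 Hsp110 genes, 3 Hsp90 genes, the Hsp60 and Hsp10 pair, 9 CCT genes, 7 small heat shock genes, 45 DnaJ genes (4 of class A, 13 of class B and 28 of class C) and 3 genes that matched by name only (Hspbp1, Hspbap1 and Hspb11). Membership rested on names alone and on no measured value, though the families were chosen with earlier results of these data known.

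The study followed serotonin (5-HT) neurons from the embryo to the newborn and asked what the transcription factor Pet-1 (gene symbol Fev) does in them. EYFP+ 5-HT neurons of C57BL/6 mice were isolated by fluorescence-activated sorting and their RNA was sequenced. Wild-type neurons were taken at 2 embryonic stages (E11.5 and E15.5, in days) and at postnatal days 1 to 3 (PN), with 3 libraries a stage amplified with the Clontech SMARTer kit. Pet-1-/- neurons at E15.5 were set against wild-type neurons of the same age, with 3 libraries a group for the Clontech kit and again for the NuGEN Ovation kit. Chromatin for one anti-Myc immunoprecipitation (ChIP) and one input came from dissected hindbrain tissue that had not been sorted. The protocol gives its genotype as Pet-1-/- with the transgenes ePet-mycPet-1 and ePet-EYFP and its age as E12.5 to E15.5, while the sample's own fields read wild type and E12.5 to E14.5. All sorted cells carried EYFP. The driver of EYFP in the RNA samples, and whether animals were pooled, are not given in the sources used here. Nothing says that the 3 libraries of a group came from separate animals, so p-values measure only the spread between these libraries.

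Chaperones help other proteins fold, assemble and cross membranes. J proteins bind a client, hand it to an Hsp70 and trigger its ATP hydrolysis, so the choice of J protein largely sets what an Hsp70 works on. Hsp90 acts later on nearly folded clients, Hsp60 with its lid Hsp10 encloses clients in mitochondria, and the CCT ring folds actin and tubulin in the cytosol. Neurons rely on this system at synapses, where J proteins such as Dnajc5 and Dnajc6 act on vesicles. Dnajc12 is best known from people who lack it, in whom the aromatic amino acid hydroxylases, including the serotonin-making enzyme tryptophan hydroxylase, become unstable.

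Values are FPKM (fragments scaled to transcript length and to the total mapped), so the levels of different genes are compared per length. Read depth is not known from such values, and no counting error is given. The 9 stage libraries had summed FPKM of 630091 to 919994 and 9614 to 11280 genes at 1 FPKM or more. Pearson's r across genes was 0.90 to 0.97 within a stage and 0.79 to 0.89 between stages. The sorted cells carried their label: 7 serotonin neuron markers summed to 914 to 1367 FPKM at E11.5, 453 to 548 at E15.5 and 474 to 725 at PN. Markers of other cell types were detected too. The 6 astrocyte and radial glia markers summed to 121 to 210 FPKM at E11.5, 932 to 1764 at E15.5 and 356 to 1040 at PN, most of it Fabp7, with Slc1a3 at 0.02 FPKM or less at E11.5. The 8 microglia markers summed to 7.57 to 14.2 FPKM at E11.5, 6.55 to 25.5 at E15.5, and 110, 1073 and 130.1 in PN libraries a, b and c, so that PN library b stood apart. Globin genes summed to at most 0.243 FPKM at E11.5, 9.67 to 47.8 at E15.5 and 0.332 to 7.66 at PN. The immediate early genes, which respond to activity and to tissue handling, summed to 92.9 to 175 FPKM at E11.5, 41.4 to 47.9 at E15.5 and 245 to 351 at PN. The 6 endothelial and meningeal markers summed to at most 0.250 FPKM at E11.5, 0.787 to 2.38 at E15.5 and 0.00489 to 2.45 at PN. Of these, Cldn5 reached 2.25 FPKM in E15.5 library a and 1.75 in PN library c, and the other 5 were below 1 FPKM in all 9 libraries. The part of these cells and of handling in the chaperone values was not tested. In sorted bulk samples, fewer cells of a type and less RNA per cell cannot be told apart.

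Chaperone messages were abundant. All 83 genes together made up 0.600% to 1.17% of the summed FPKM at E11.5, 1.19% to 1.89% at E15.5 and 1.12% to 1.56% at PN. In every one of the 9 libraries, 13 members were above 100 FPKM and 52 had at least 1 FPKM. Hspa8, the constitutive cytosolic Hsp70, had the highest level of the 83 genes in each library. It had 959, 2474 and 2782 FPKM at E11.5, 3234, 3468 and 4261 at E15.5, and 2747, 2948 and 3359 at PN. The stress-inducible Hsp70 genes stood at the other end. Hspa1a had 0 to 0.0474 FPKM at E11.5, 0 to 0.330 at E15.5 and 0.854 to 1.93 at PN, and Hspa1b never passed 0.138. These genes are nearly identical in sequence, so reads may have been split between them. Hspb1, the best known small heat shock protein, did not exceed 0.771 FPKM in any library, and Hspb2, Dnajb8 and Dnajc5g were listed at 0 in all 9. In all, 67 members passed the filter of at least 1 FPKM in at least 3 libraries and were tested. The 16 others were Cct6b, Cct8l1, Dnajb7, Dnajb8, Dnajc5b, Dnajc5g, Dnajc22, Hspa1a, Hspa1b, Hspa12b, Hspb1, Hspb2, Hspb3, Hspb7, Hspb8 and Hspb9.

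**Figure D1:**
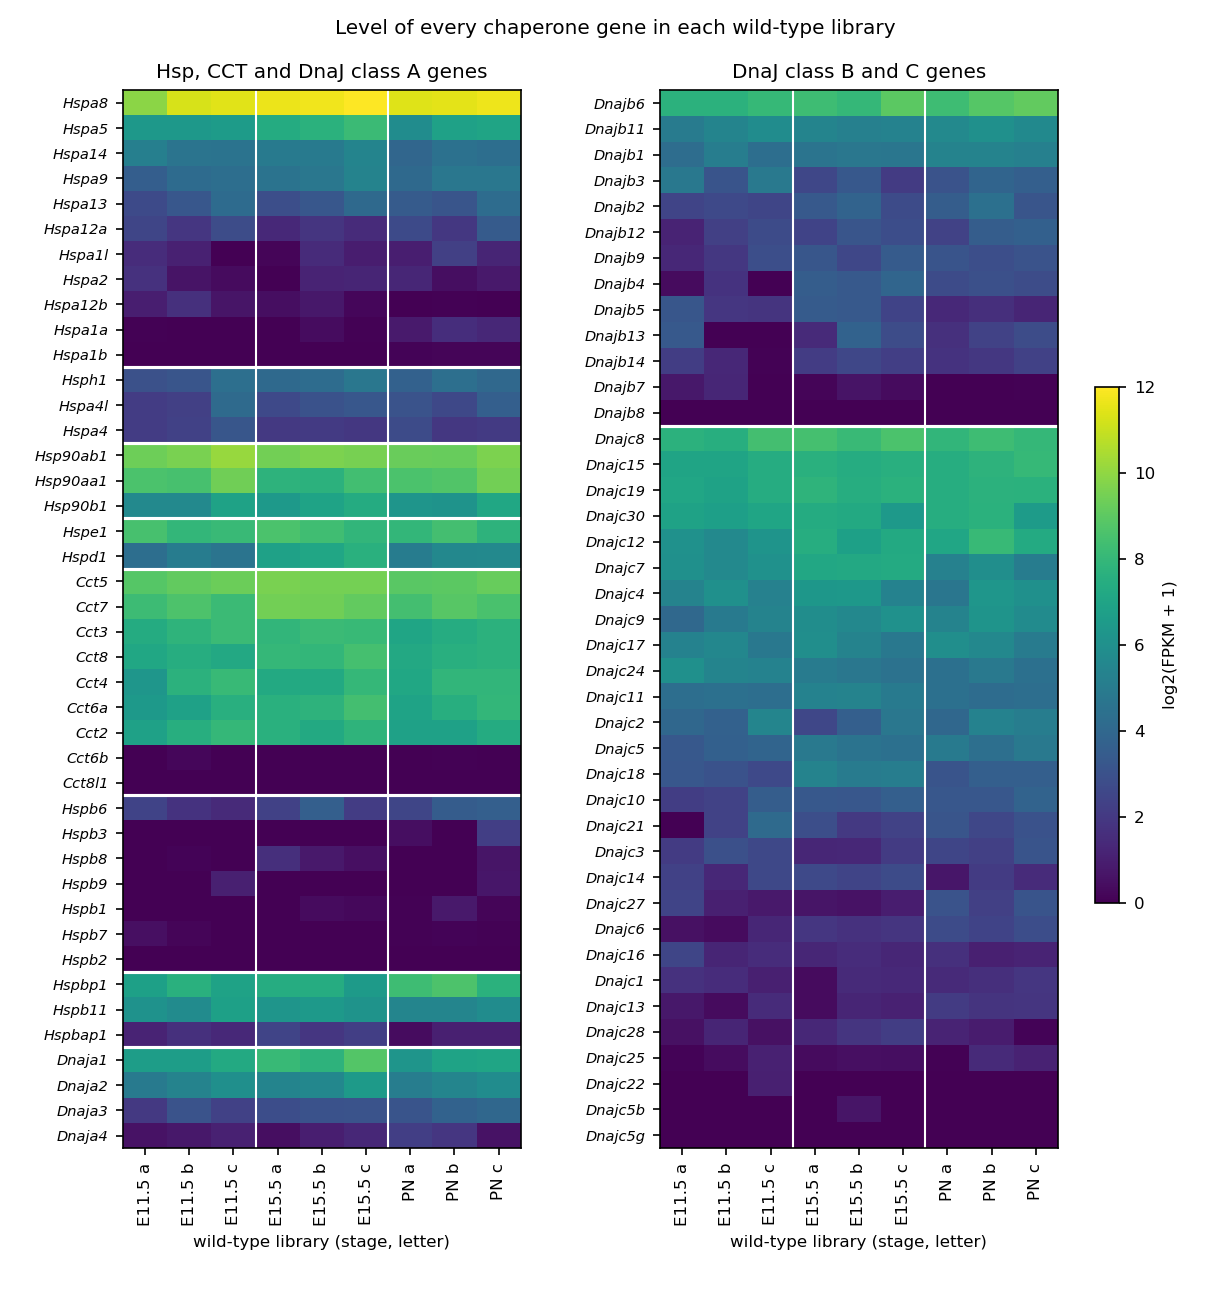
Levels of the 83 chaperone genes in the 9 wild-type libraries, as log2(FPKM + 1) on a colour scale with bright for high, with genes down the page by class and libraries across it by stage. Hspa8 is the brightest row, followed by Hsp90ab1 and Cct5, while Cct6b, Cct8l1 and nearly all small heat shock genes are dark.

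Between E11.5 and E15.5 the called changes among chaperones were nearly all increases. The mitochondrial chaperonin Hspd1, the J proteins Dnajb4, Dnajc18, Dnajc7 and Dnaja1, the endoplasmic reticulum (ER) Hsp70 Hspa5 and the hydroxylase partner Dnajc12 rose at least 2-fold on the log2(FPKM + 1) scale, which understates change in low genes. Differences were tested with limma over all 11741 genes that passed the filter, with Benjamini-Hochberg adjustment, and a gene was called at an adjusted p below 0.05 and a change of at least 1.5-fold. Of the 67 tested members, 14 were called (20.9%), 13 higher and 1 lower at E15.5. Among all genes tested, 28.9% were called, with 17.4% higher and 11.48% lower. The members' share of increases (19.4%) was thus close to that of all genes, while 1 of 67 fell. The members' median change was 0.47 log2 units against 0.11 for all genes tested. An unadjusted limma p below 0.05 was found for 25 of 67 members and for 4777 of all 11741 genes. Upper quartile scaling gave 8 members higher and 3 lower. Under that scaling the median of all genes moved to -0.02. The count fell to 9 without E15.5 library a. The authors' deposited comparison of these stages called 27 members, where 34.0% of all genes were called.

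From E15.5 to PN, 11 of the 67 members were called (16.4%), 2 higher and 9 lower. The background was 20.2% of all genes tested, with 10.6% higher and 9.55% lower. The members' median was -0.04, against 0.01 for all genes. An unadjusted limma p below 0.05 was found for 24 of 67 members and for 4043 of all 11741 genes. The count was 6 without E15.5 library a or b and 5 without PN library a. The authors' deposited comparison called 23, where 28.5% of all genes were called. The 7 genes called up in the first interval and down in the second were Hspd1, Hspa5, Dnaja1, Dnajc7, Dnajc18, Dnajc11 and Cct7. The share of all genes tested with that order of calls was not computed, so no excess among members is claimed. Between E11.5 and PN directly, 11 members were called (16.4%), 10 higher and 1 lower, against a background of 27.4%, with 17.4% higher and 10.0% lower. That count was 6 without PN library b or c, and median centring gave 4 higher and 1 lower.

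Whether the second change differed from the first was tested as the difference between the changes from E15.5 to PN and from E11.5 to E15.5. That contrast was called for 14 members (20.9%), 12 of them lower and 2 higher. Its background was 22.6% of genes tested, with 13.0% lower and 9.62% higher, so the count as a whole was near the background. The members' median was -0.54, against -0.07 for all genes. Upper quartile scaling gave 9 lower and 4 higher, with the median of all genes at 0.13. The count was 7 without E15.5 library a and 9 without library b or c. Both intervals use the same E15.5 libraries, so a shift in those libraries enters both with opposite sign.

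**Figure D2:**
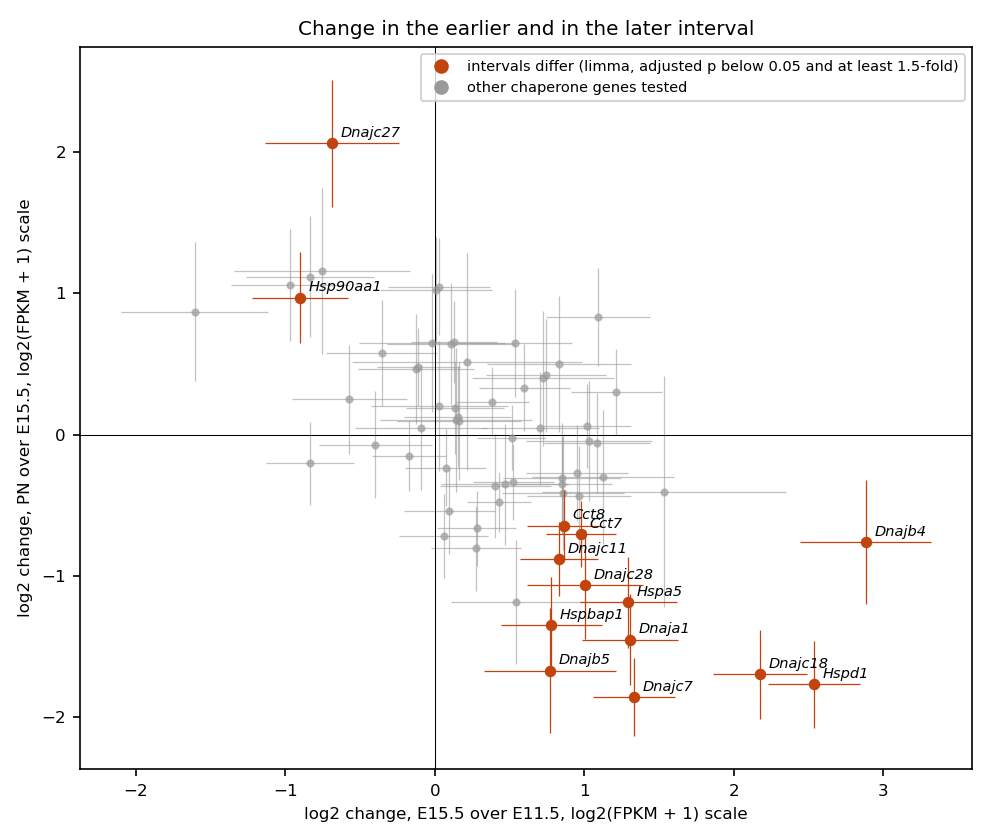
Change of each tested chaperone gene from E15.5 to PN (vertical axis) against its change from E11.5 to E15.5 (horizontal axis), on the log2(FPKM + 1) scale, with bars for the limma SE and named orange points where the turn between intervals was called. Hspd1, Dnajc18, Dnajc7, Dnaja1 and Hspa5 lie at the lower right and Dnajc27 and Hsp90aa1 at the upper left, and the E15.5 libraries enter both axes.

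Among the Hsp70 genes, the ER member Hspa5 (BiP) changed most clearly. It had 82.7, 82.9 and 95.2 FPKM at E11.5, 168, 202 and 288 at E15.5 and 56.1, 114 and 127 at PN. Every E15.5 library lay above every library of the other stages. Hspa5 rose by 1.29 log2 units into E15.5 (SE 0.32, limma adjusted p = 0.0111) and fell by 1.19 after it (adjusted p = 0.0230). The fall was not called without E15.5 library b or c or PN library a, with an adjusted p of up to 0.103. Nor was the fall called without the filter on low values. Hspa8 differed by 0.95 from E11.5 to E15.5 with a limma adjusted p of 0.0539, just outside the threshold. E11.5 library a held far less Hspa8 than the other two of its stage, and the change was called when E11.5 library b or c was left out. The mitochondrial Hsp70 Hspa9 had 11.2, 17.1 and 19.0 FPKM at E11.5, 22.4, 26.3 and 39.7 at E15.5 and 16.2, 25.9 and 26.2 at PN. Its first change of 0.85 log2 units was not called (limma adjusted p = 0.0742). The authors' deposited comparison called both Hspa8 (0.83, q = 0.00103) and Hspa9 (0.90, q = 0.00240) higher into E15.5.

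The promoter of Hspa5 and those of 2 other ER chaperones hold the ER stress element, the sequence through which the unfolded protein response raises these genes. They are shown because Hspa5 is among the clearest changes and the element is rare. Dnajc3 encodes an ER J protein and Hsp90b1 the ER Hsp90 (Grp94). The search looked for CCAAT and CCACG with 9 bases of any kind between them, on both strands of the 250 bases before the start site. It matched 3 of the 68 members with a promoter sequence (4.41%) and 0.130% of 27025 genes. Sequences are from RefSeq on GRCm38.p6, 5′ to 3′ on the gene's strand, each covering bases 250 to 1 before the start, with the element in capitals. They lie at chr2:34771840-34772089 (plus strand) for Hspa5, chr10:86705445-86705694 (minus) for Hsp90b1 and chr14:118937682-118937931 (plus) for Dnajc3.
Hspa5: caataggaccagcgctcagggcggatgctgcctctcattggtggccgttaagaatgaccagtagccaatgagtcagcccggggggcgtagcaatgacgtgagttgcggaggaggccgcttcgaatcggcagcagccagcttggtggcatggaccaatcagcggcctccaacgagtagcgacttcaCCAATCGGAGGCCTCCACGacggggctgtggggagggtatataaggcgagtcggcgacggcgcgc
Hsp90b1: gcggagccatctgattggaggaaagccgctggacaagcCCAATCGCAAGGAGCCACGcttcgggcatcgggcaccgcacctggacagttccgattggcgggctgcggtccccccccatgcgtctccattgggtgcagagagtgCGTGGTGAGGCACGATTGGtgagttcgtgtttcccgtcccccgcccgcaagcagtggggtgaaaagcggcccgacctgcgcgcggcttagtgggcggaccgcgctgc
Dnajc3: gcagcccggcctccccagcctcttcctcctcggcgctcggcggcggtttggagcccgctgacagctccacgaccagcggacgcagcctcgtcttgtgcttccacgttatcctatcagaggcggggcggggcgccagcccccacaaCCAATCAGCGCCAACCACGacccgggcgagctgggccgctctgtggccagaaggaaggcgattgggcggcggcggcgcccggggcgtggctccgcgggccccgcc
Hsp90b1 carried 2 copies, one on each strand. The genes that share the element differed in their values by stage. Hsp90b1 had 49.5, 48.7 and 121 FPKM at E11.5, 85.3, 124 and 168 at E15.5 and 75.6, 69.6 and 142 at PN, with overlapping stages and no call (limma adjusted p = 0.132 for the first interval, 0.0245 without E11.5 library c). Dnajc3 had 3.18, 6.72 and 5.03 FPKM at E11.5, 1.42, 1.53 and 3.26 at E15.5 and 4.72, 3.79 and 7.60 at PN. Its lowest values were thus at the stage where Hspa5 was highest, and neither change of Dnajc3 was called by limma. The authors' deposited comparison called Hsp90b1 higher into E15.5 (0.76, q = 0.00160), as it did Hspa5 (1.35, q = 0.000388). It called Dnajc3 lower into E15.5 (-1.27, q = 0.00940) and higher after it (1.39, q = 0.00428), in the authors' deposited table.

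Other genes of ER folding and of the unfolded protein response gave a mixed picture. Of 18 tested, 5 rose into E15.5 (Canx, Herpud1, Pdia3, Pdia4 and Pdia6) and Ddit3 fell. From E15.5 to PN, Atf4 and Xbp1 rose while Pdia3, Pdia4 and Pdia6 fell. The protein disulfide isomerases Pdia3, Pdia4 and Pdia6, which form disulfide bonds in the ER, thus had the same order of calls as Hspa5, whereas P4hb, the fourth of that family in the list, was called in neither interval (0.45 and -0.52 log2 units). Pdia4 changed by 1.15 and then by -1.64 log2 units, Pdia6 by 1.15 and -1.07, and Pdia3 by 0.88 and -1.30.

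Hspd1 (Hsp60) changed most among chaperones of sizeable level. It had 19.2, 31.6 and 23.2 FPKM at E11.5, 114, 137 and 195 at E15.5 and 31.4, 47.4 and 49.6 at PN. No E15.5 library overlapped another stage. Hspd1 rose by 2.54 log2 units into E15.5 (SE 0.31, limma adjusted p = 0.000147) and fell by 1.77 after it (SE 0.31, adjusted p = 0.00244). Both calls held under 12 alternative settings: a pseudocount of 0.1, upper quartile scaling, median centring and leaving out each of the 9 libraries in turn. Its partner Hspe1 (Hsp10), the lid of the same chamber, had 364, 247 and 280.3 FPKM at E11.5, 392, 314 and 238 at E15.5 and 245, 340.3 and 215 at PN. These values overlapped at all 3 stages. The change of 0.07 log2 units into E15.5 turned to -0.11 under upper quartile scaling. The ratio of Hspe1 to Hspd1 was therefore 7.82 to 19.0 at E11.5, 1.22 to 3.43 at E15.5 and 4.34 to 7.81 at PN, with no overlap between stages, though E11.5 and PN nearly met. Hspe1 is known for processed pseudogenes, so its level is less certain than that of Hspd1. Of 10 tested genes of mitochondrial import and folding, Grpel2 rose into E15.5 and none was called after it.

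Both genes lie head to head on chromosome 1, and the bases before the start of Hspe1, which RefSeq places inside the span of Hspd1, hold heat shock elements, the binding sites of heat shock factor. The paired form was searched as GAANNTTC, where N is any base, and the triple form as the same letters followed by NN and GAA, on both strands of the 250 bases before the start. The triple form was found in 3 members (Hspd1, Hspe1 and Dnajb6), which is 4.41% against 0.514% of 27025 genes, expressed or not. The paired form was found in 13 members (19.1% against 7.73%). Hspd1 and Hspe1 hold the same bases, read from either gene, so each such element counts for both. Every triple element contains a paired one. The stretches below show the triple element of Hspe1 and Dnajb6 and the paired element of Dnaja1, since these genes moved differently. Capitals mark the elements, which in Hspe1 and Dnajb6 overlap the letters CCGGAA, the core bound by ETS factors such as Pet-1. They are RefSeq GRCm38.p6 plus-strand bases at chr1:55088055-55088084 for Hspe1, chr5:29735843-29735872 for Dnajb6 and chr4:40722333-40722362 for Dnaja1.
Hspe1: tccgTTCTAGAACCTTCCGGAAggccccgc
Dnajb6: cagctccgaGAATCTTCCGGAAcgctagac
Dnaja1: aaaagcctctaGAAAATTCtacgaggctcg
Dnajb6, which keeps polyglutamine proteins from aggregating, had 206, 208 and 261 FPKM at E11.5, 307, 252 and 505 at E15.5 and 304, 462 and 557 at PN. It rose by 0.93 log2 units from E11.5 to PN (SE 0.31, limma adjusted p = 0.0387). The call was lost without E11.5 library a or b or PN library b or c, and under both other scalings, with an adjusted p of up to 0.145. Leaving out the filter on low values or the mean-variance trend ended the call too. Of 5 tested heat shock factors and other inducible genes outside the families, 0 rose or fell into E15.5 by limma, and Serpinh1 fell from E15.5 to PN.

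The J proteins Dnaja1, Dnajc7 and Dnajc18 followed the same course as Hspd1. Dnaja1, a main partner of cytosolic Hsp70, had 102, 103 and 158 FPKM at E11.5, 269, 217 and 436 at E15.5 and 76.4, 123 and 129.9 at PN. It rose by 1.31 (SE 0.32, limma adjusted p = 0.01003) and fell by 1.45 (adjusted p = 0.00865). Dnajc7, which passes clients between Hsp70 and Hsp90, had 64.8, 50.0 and 66.8 FPKM at E11.5, 147, 153 and 159 at E15.5 and 38.1, 59.1 and 31.5 at PN. It rose by 1.33 (SE 0.28, adjusted p = 0.00405 by limma) and fell by 1.86 (adjusted p = 0.00104). Dnajc18, a J protein of the ER membrane, had 8.64, 7.10 and 5.18 FPKM at E11.5, 40.3, 30.4 and 33.4 at E15.5 and 7.54, 11.2 and 11.52 at PN. Its changes were 2.18 (SE 0.31, limma adjusted p = 0.000442) and -1.70 (adjusted p = 0.00325). For all 3 genes the E15.5 libraries lay above every other library, and all 6 calls held under the 12 alternatives. Dnajc7 overlaps Cnp, a gene of myelinating glia, so reads there are less certain where strand was not used in counting. The oligodendrocyte markers summed to 6.10 to 12.6 FPKM at E11.5, 14.2 to 70.3 at E15.5 and 13.0 to 15.8 at PN.

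Dnajb1, the main class B partner of Hsp70, took another course. It had 18.3, 32.6 and 18.9 FPKM at E11.5, 23.2, 25.7 and 25.2 at E15.5 and 40.7, 40.9 and 36.9 at PN, so every PN library was above every earlier one. Neither interval was called by limma, and the first change of 0.13 log2 units became -0.05 under upper quartile scaling. The authors' deposited comparison called Dnajb1 higher from E15.5 to PN (0.66, q = 0.0280). The change of Dnajb1 from E11.5 to PN was not called either, but without E11.5 library b it was (1.04 log2 units, limma adjusted p = 0.0209). The ratio of Dnaja1 to Dnajb1 was 3.15 to 8.34 at E11.5, 8.45 to 17.3 at E15.5 and 1.88 to 3.52 at PN. Dnajb4, a close relative of Dnajb1, had 0.281, 2.36 and 0.0227 FPKM at E11.5, 10.4, 9.20 and 14.2 at E15.5 and 5.79, 6.74 and 5.93 at PN. It rose by 2.88 into E15.5 (SE 0.44, limma adjusted p = 0.000618) and was still 2.12 higher at PN than at E11.5 (adjusted p = 0.00319), with no overlap among stages. Both calls held under the 12 alternatives. Dnajb5 fell by 1.67 from E15.5 to PN (SE 0.44, limma adjusted p = 0.0203), with 10.0, 9.28 and 4.33 FPKM at E15.5 and 1.60, 2.05 and 1.36 at PN. That call was lost without E15.5 library a or b or PN library a or c, with an adjusted p of up to 0.0810. Leaving out the filter on low values also ended the call. Dnajb3 fell by 1.61 into E15.5 (limma adjusted p = 0.0283), but its groups overlapped. Leaving out E11.5 library a or c, E15.5 library a or c, or the filter on low values ended the call. Dnajb3 lies inside the Ugt1a cluster, whose 8 listed genes share its span.

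Dnajc5 and Dnajc6, both of class C, were higher at PN than at E11.5. Dnajc5 (cysteine string protein), which guards synaptic vesicle proteins, had 8.88, 11.9 and 13.5 FPKM at E11.5, 28.0, 23.1 and 20.8 at E15.5 and 28.5, 19.6 and 27.5 at PN. It rose by 1.02 into E15.5 (SE 0.30, limma adjusted p = 0.0228) and was 1.08 higher at PN than at E11.5 (adjusted p = 0.0168). The first call was lost without E11.5 library a, E15.5 library a or b, and under upper quartile scaling, and the second without PN library a or c. Dnajc6 (auxilin), which strips clathrin from vesicles, had 0.452, 0.288 and 1.47 FPKM at E11.5, 2.76, 2.29 and 2.60 at E15.5 and 5.67, 4.36 and 6.04 at PN. The 3 stages did not overlap and followed each other upwards. Dnajc6 rose by 1.92 from E11.5 to PN (SE 0.35, limma adjusted p = 0.00144), a call kept under all 12 alternatives. Its first step of 1.09 was lost without any 1 of 5 libraries (E11.5 a or b and each E15.5 library) and under upper quartile scaling. Without the filter on low values that step was not called either. Dnajb2, a J protein enriched in neurons, was 1.17 higher at PN than at E11.5 (limma adjusted p = 0.0471), but only 2 of the 12 alternatives kept that call.

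**Figure D3:**
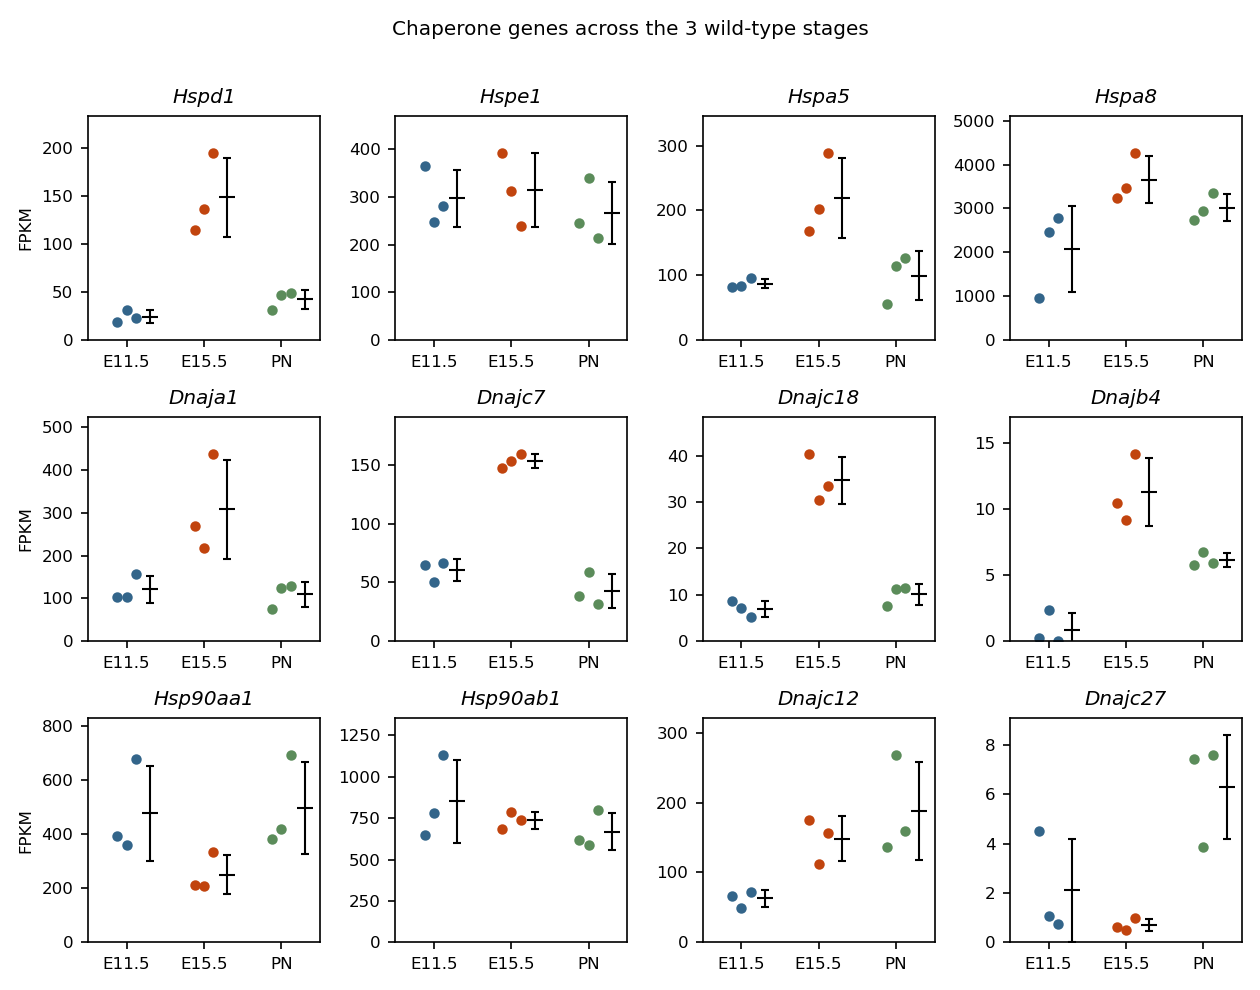
FPKM of 12 chaperone genes at E11.5, E15.5 and PN on linear axes that start at 0, with a point for each library and a bar for the mean and SD (n = 3). Hspd1, Hspa5, Dnaja1, Dnajc7 and Dnajc18 are highest at E15.5, Dnajb4 and Dnajc12 remain above E11.5 at PN, and Hspe1 overlaps at all stages.

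Dnajc12 also rose and stayed high. It had 66.9, 49.9 and 72.1 FPKM at E11.5, 175, 112 and 157 at E15.5 and 136, 268 and 159.9 at PN. All later libraries lay above all E11.5 libraries, and E15.5 and PN overlapped. The increase was 1.21 log2 units into E15.5 (SE 0.30, limma adjusted p = 0.0109) and 1.52 to PN (SE 0.30, adjusted p = 0.00263), and both calls held under all 12 alternatives. Its client Tph2, the neuronal tryptophan hydroxylase, fell in the first interval. The ratio of Dnajc12 to Tph2 was 0.236 to 0.462 at E11.5, 2.06 to 2.69 at E15.5 and 1.90 to 2.29 at PN, with every later library above every E11.5 library. These ratios are for the Clontech kit only. In the authors' deposited tables, wild-type Tph2 at E15.5 was 63.5 FPKM with Clontech and 218 with NuGEN, and the kits were normalized separately. A list of clients, genes of their cofactor and Ddc, which is neither, had 8 tested genes. Of these, Th rose into E15.5, while Ddc, Pcbd1, Qdpr, Spr and Tph2 fell. Pcbd1, Qdpr and Spr, which make or recycle the cofactor tetrahydrobiopterin, then rose from E15.5 to PN.

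Dnajc27, a Rab-like small GTPase with a J domain, rose in the later interval. It had 4.52, 1.06 and 0.765 FPKM at E11.5, 0.604, 0.520 and 0.978 at E15.5 and 7.42, 3.86 and 7.58 at PN. Dnajc27 rose by 2.06 from E15.5 to PN (SE 0.45, limma adjusted p = 0.00786), and the 12 alternatives kept that call. E11.5 library a overlapped the PN values, and the rise of 1.38 from E11.5 to PN (adjusted p = 0.0377) was kept by only 3 of 12 alternatives. Hspbp1, an exchange factor that makes Hsp70 release its nucleotide, had 173, 174 and 92.0 FPKM at E15.5 and 309, 399.8 and 199 at PN. It rose by 1.05 (limma adjusted p = 0.0488), a call that 8 of 12 alternatives ended. Dnajc24, which takes part in the diphthamide modification of elongation factor 2, fell by 1.04 from E11.5 to PN (SE 0.29, limma adjusted p = 0.0200). It had 64.8, 41.4 and 39.3 FPKM at E11.5, 30.7, 26.5 and 21.8 at E15.5 and 20.4, 27.7 and 20.2 at PN. The call was lost without E11.5 library a or PN library a or c.

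The remaining calls were smaller or less stable. Dnajc9, a histone co-chaperone, rose by 1.08 into E15.5 (limma adjusted p = 0.0376). Leaving out E11.5 library a or b or any E15.5 library, or upper quartile scaling, ended that call. So did leaving out the filter on low values or the mean-variance trend. Dnajc11, of the mitochondrial outer membrane, had 19.5, 20.7 and 19.4 FPKM at E11.5, 38.7, 40.9 and 29.8 at E15.5 and 20.4, 18.0 and 19.2 at PN. Its rise of 0.83 and fall of 0.88 (limma adjusted p = 0.0323 and 0.0336) showed no overlap. Leaving out any 1 library of E11.5, or E15.5 library a or b, or upper quartile scaling ended the first call, and leaving out E15.5 library a or b or any PN library ended the second. Dnaja3, a mitochondrial J protein, was 1.18 higher at PN than at E11.5 (adjusted p = 0.0358 by limma), a call lost under 7 of 12 alternatives. Hspbap1, which was named for binding Hspb1, fell by 1.35 from E15.5 to PN (limma adjusted p = 0.0157), and that call was lost without E15.5 library a or PN library a.

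The cytosolic Hsp90 genes parted. Hsp90aa1, the more inducible form, had 393, 361 and 679 FPKM at E11.5, 213, 207 and 333 at E15.5 and 381, 421 and 693 at PN. Every E15.5 library lay below every library of the other stages. The single steps were -0.90 and 0.97 log2 units, with limma adjusted p of 0.0526 and 0.0508, outside the threshold. The authors' deposited comparison called both steps (-0.95 and 1.01, q = 0.000388 for each). The test of the turn between them was called (1.87, SE 0.56, adjusted p = 0.0302). That call was lost without E15.5 library a or b or PN library c, without the filter on low values and without the mean-variance trend. The first step was called without E11.5 library b, E15.5 library c or PN library c (adjusted p of 0.0373 to 0.0495), and the second without E11.5 library a or c or E15.5 library c. Upper quartile scaling also called both steps, and median centring the first. Hsp90ab1, the constitutive form, had 645, 780.1 and 1128 FPKM at E11.5, 686, 784 and 737 at E15.5 and 619, 587 and 799 at PN, all overlapping. The ratio of Hsp90ab1 to Hsp90aa1 was 1.64 to 2.16 at E11.5, 2.21 to 3.79 at E15.5 and 1.15 to 1.62 at PN. The ranges did not overlap, though that of E11.5 nearly met both others. The summed level of the immediate early genes was also lowest at E15.5. Of 11 tested, 3 (Dusp1, Ier2 and Jun) fell into E15.5, with a median of -0.04 over the list, and 10 rose after it. Their part was not tested. Among 26 tested co-chaperones of Hsp70 and Hsp90, Ppid and Ptges3 rose into E15.5 while Bag6, Cdc37, Nudc, Sgtb and Stub1 fell. After E15.5, Bag6, Nudc and Stub1 rose and Chordc1 fell.

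The CCT ring is built from different subunits that each take a set place. The 7 tested subunits had positive differences from E11.5 to E15.5, except that Cct2 (-0.09) and Cct4 (-0.02) turned negative under upper quartile scaling. Cct7 and Cct8 were called. Cct7 had 294, 399 and 287 FPKM at E11.5, 696, 665 and 559 at E15.5 and 345, 465 and 370.5 at PN. It rose by 0.98 (SE 0.23, limma adjusted p = 0.00853) and fell by 0.71 (adjusted p = 0.0498). The rise held under all 12 alternatives and the fall under 3. Cct8 had 139, 178 and 149 FPKM at E11.5, 256, 245 and 357 at E15.5 and 148, 190.7 and 207 at PN. It rose by 0.86 (SE 0.25, limma adjusted p = 0.0212), a call lost without E11.5 library a or E15.5 library c and under upper quartile scaling. The eighth kind of subunit, Tcp1 (CCT1), does not match the symbols of the rule and had 126 to 173 FPKM at E11.5, 237 to 312 at E15.5 and 141 to 172 at PN. Tcp1 rose by 0.80 (adjusted p = 0.0249 by limma) and fell by 0.75 (adjusted p = 0.0413).

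Levels within the ring were unequal. Cct5 was the highest of the 7 tested members in all 9 libraries, with 461, 549 and 627 FPKM at E11.5, 760.3, 711 and 716 at E15.5 and 481, 511 and 585 at PN. The lowest member was Cct2 in 5 libraries, Cct4 in 2, and Cct6a and Cct8 in 1 each. The highest subunit exceeded the lowest by 3.25-fold to 5.83-fold. The testis forms Cct6b and Cct8l1 had at most 0.164 and 0.0206 FPKM. Of 7 tested chaperonin and prefoldin partners, Tcp1 rose and Pfdn5 fell into E15.5, and only Tcp1 was called after it, as lower.

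In Pet-1-/- neurons Dnajc12 was lower than in wild type with both kits, and most other chaperone genes lay within 1.5-fold of wild type, as did most genes. The values are group means from the authors' deposited Cuffdiff tables, with their own q values and without library spread. The 3 Clontech wild-type libraries at E15.5 also appear to serve as the E15.5 stage, so these comparisons are not independent of those above. The target itself checked the labels: Fev had 0.422 FPKM in Pet-1-/- neurons and 31.1 in wild type with the Clontech kit, and 0.308 in Pet-1-/- neurons and 34.9 in wild type with NuGEN, in the authors' deposited tables. Calls needed q below 0.05, a ratio of 1.5 or more and a group at 1 FPKM or more. With the Clontech kit, 1 of 66 members was called, lower, against 2.82% of all genes (0.969% higher and 1.85% lower), and 59 of 66 lay within 1.5-fold (89.4%, against 79.6% of all genes). With NuGEN, 5 of 64 were called, 3 higher and 2 lower, against 12.7% of all genes (8.19% higher and 4.56% lower), and 51 of 64 lay within 1.5-fold (79.7%, against 73.4% of all genes). The members' medians were -0.07 for Clontech and 0.00 for NuGEN, against -0.02 and 0.09 for all genes. At the authors' unadjusted p below 0.05 there were 7 of 66 members for Clontech and 14 of 64 for NuGEN. Over all genes there were 1836 of 10927 and 3113 of 11008.

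Dnajc12 was the member called lower with both kits. In the authors' deposited tables it had 41.0 FPKM in Pet-1-/- neurons and 157 in wild type for Clontech, a log2 ratio of -1.94 (q = 0.00391). For NuGEN it had 29.4 in Pet-1-/- neurons and 177 in wild type, a log2 ratio of -2.59 (q = 0.00206). Among the members at 1 FPKM or more in a group, Dnajc12 had the largest ratio in either direction in each table. Below that level larger ratios occurred without a call, as for Dnajc22 with Clontech (4.82) and Hspb1 with NuGEN (3.51), in the authors' deposited tables. Its client Tph2 had 9.75 FPKM in Pet-1-/- neurons and 63.5 in wild type for Clontech, and 11.1 in Pet-1-/- neurons and 218 in wild type for NuGEN, in the authors' deposited tables. Ddc, which makes serotonin from 5-hydroxytryptophan, had 44.0 FPKM in Pet-1-/- neurons and 164 in wild type for Clontech, and 38.8 in Pet-1-/- neurons and 203 in wild type for NuGEN. With each kit, 6 of 7 serotonin neuron markers were lower in Pet-1-/- neurons. Of 5 tested astrocyte markers, 4 were lower with Clontech, while with NuGEN Fabp7 was higher and Slc1a3 lower. The oligodendrocyte markers Mbp and Olig1 were higher with NuGEN (2 of 5 tested) and none of 5 was called with Clontech. With Clontech, Elavl3 of 2 pan-neuronal markers was higher and Fos and Btg2 of 9 immediate early genes were lower, and with NuGEN none of these lists held a call. The part of cell makeup in these differences was not tested.

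The other calls came with NuGEN. Hspe1 had 419 FPKM in Pet-1-/- neurons and 211 in wild type (log2 ratio 0.99, q = 0.00206) in the authors' deposited table. Dnajc15 and Dnajc19, J proteins of the mitochondrial inner membrane, were also higher. Dnajc15 had 184 in Pet-1-/- neurons and 97.1 in wild type (q = 0.00352), and Dnajc19 had 179.8 in Pet-1-/- neurons and 95.5 in wild type (q = 0.0452), in the authors' deposited table. Dnajc10, an ER J protein that reduces disulfide bonds, was lower, with 9.62 in Pet-1-/- neurons and 17.1 in wild type (log2 ratio -0.83, q = 0.0132). None of these was called with Clontech. There Hspe1 had 308 FPKM in Pet-1-/- neurons and 294 in wild type (q = 0.914), and the authors' deposited log2 ratios were 0.00 for Dnajc15, -0.24 for Dnajc19 and -0.30 for Dnajc10. The kits were normalized separately and the difference between them was not tested. Hspd1, Hspa5 and all 7 tested CCT subunits were within 1.5-fold with both kits, and Hspa8 was marked by the authors as too deep to test with NuGEN. In the partner lists, no co-chaperone of 26 and no ER folding gene of 19 was called with Clontech, nor any of 7 chaperonin and prefoldin partners or 10 mitochondrial genes. Of the 5 heat shock factors and inducible genes, Serpinh1 was lower, with 5.41 FPKM in Pet-1-/- neurons and 12.4 in wild type (log2 ratio -1.20, q = 0.0169), in the authors' deposited table. With NuGEN, Bag1, Pam16, Pfdn1, Pfdn4 and Pfdn5 were higher, and Fkbp4, Sgtb, Pdia3 and Xbp1 were lower.

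**Figure D4:**
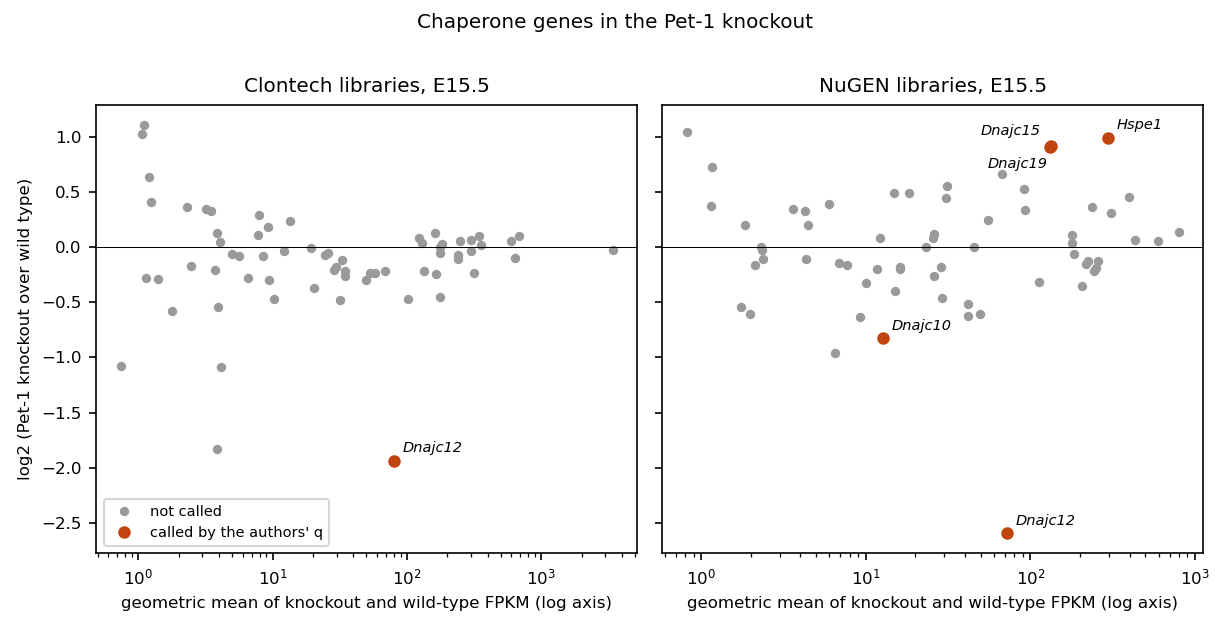
Log2 ratio of Pet-1-/- over wild type at E15.5 (vertical axis) against the geometric mean of both groups' FPKM (log axis), for the chaperone genes at 1 FPKM or more in a group in the authors' deposited Clontech table (left) and NuGEN table (right), with called genes in orange. Dnajc12 is the lowest point in each panel, and Hspe1, Dnajc15 and Dnajc19 are the called genes above 0, with NuGEN.

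MycPet-1 peaks lay at the starts of many chaperone genes. A peak centre was within 1 kb of the start for 30 of the 68 members with a RefSeq start site (44.1%), against 20.3% of 16996 genes. Among genes that passed the expression filter, the shares were 28 of 55 tested members (50.9%) and 32.9% of 9266 genes. Scores are the authors' own, per peak, with a median of 88.3 over 4934 peaks and 1 immunoprecipitation behind them. Coordinates are on mm10. The authors' peak list gave Hspa4, an Hsp110-type exchange factor, the highest member score, 2584 (rank 9), at chr11:53299649-53301077. Dnajb4 had a score of 1739 (rank 25) at chr3:152209721-152211366, and the gene Fubp1 overlaps Dnajb4. Of 8 CCT genes with a start site, 5 had a peak: Cct8 (828), Cct5 (730), Cct6a (352), Cct7 (212) and Cct6b (81.9). Dnajc27 had a score of 650 (rank 143), and Hspd1 and Hspe1 shared 1 peak of score 151. The weakest was Hspbp1, with 54.7. No small heat shock gene of 6 had one.

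**Figure D5:**
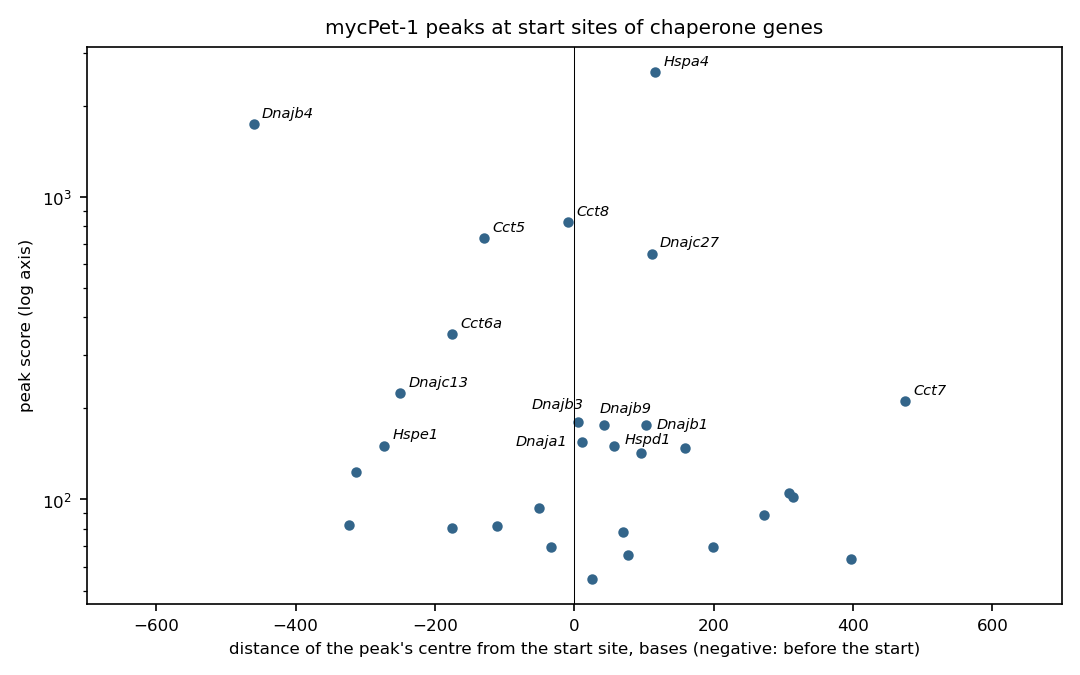
Score of the mycPet-1 peak (log axis) against the distance in bases of its centre from the start site, for the 30 chaperone genes with a peak within 1 kb, with the higher scores named. Hspa4 and Dnajb4 have the highest scores, 2584 and 1739, and the weakest is 54.7.

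Members with a peak at the start included genes called in each direction. From E11.5 to E15.5, 5 of 28 tested members with a peak rose and 1 fell, and 4 of 27 without a peak rose, with medians of 0.47 in both sets, against 17.4% higher and 11.48% lower among all genes tested. From E15.5 to PN, 2 of 28 with a peak rose and 3 fell, and 4 of 27 without a peak fell, against 10.6% higher and 9.55% lower among all genes tested. From E11.5 to PN, 5 of 28 with a peak rose and 1 fell, and 3 of 27 without a peak rose, against 17.4% higher and 10.0% lower among all genes tested. No difference between these sets was tested. Hspa4, with the strongest peak, had 3.45, 3.93 and 8.34 FPKM at E11.5, 2.97, 3.06 and 2.87 at E15.5 and 5.66, 2.85 and 3.11 at PN, and no interval was called. Of the 30, 2 were called in the authors' deposited NuGEN knockout table, Dnajc19 and Hspe1, and 0 in the Clontech one. Among all genes that could be called, 12.7% were called with NuGEN and 2.82% with Clontech. The 30 were not limited to such genes. Dnajc12 has no start site in the table used. Its nearest peak was 20449 bases beyond its span on chromosome 10, at 63429289 to 63430209, with a score of 126. Over whole gene spans with 1 kb on each side, 38 of 83 members (45.8%) held a peak, against 22.4% of 22293 genes.

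Pet-1 belongs to the ETS family, whose core is CCGGAA. That core was present on either strand of the 250 bases before the start in 20 of 68 members (29.4%), against 13.6% of 27025 genes. These genes were not limited to expressed ones, and the share among expressed genes was not computed. It was found in 11 of the 30 members with a peak and in 9 of the 38 without. Hspd1 and Hspe1, both with a peak, hold the same core bases and are counted separately. The longer form CCGGAAGT, which contains the core, was found in 4 members (Cct8, Dnajc1, Dnajc14 and Dnajc7), or 5.88% against 3.23%. Cct8 is shown as the CCT gene with the highest peak score, whose centre lay 9 bases from the start. The stretch covers the 100 bases before the start at chr16:87495870-87495969 (minus strand), from RefSeq on GRCm38.p6, with the core in capitals.
Cct8: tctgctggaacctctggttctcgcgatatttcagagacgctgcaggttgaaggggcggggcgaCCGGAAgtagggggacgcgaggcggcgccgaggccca
A match of letters describes the window and says nothing of binding. Of the 20 members with the core, 11 thus had a peak near the start, and Cct5, Cct7 and Cct8 were among them. How often genes with the core have a peak was not computed over all genes, so no link between core and peak is claimed.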

How the data were processed

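Sorted mouse 5-HT neurons were profiled by RNA sequencing, and mycPet-1 binding by ChIP sequencing. Per the submitters' processing notes, TopHat2, Cufflinks, BWA and MACS 1.4.2 were used, with mm9 and mm10 named. The notes give no roles, and no label or header says whether counting used strand. The authors deposited FPKM for each of the 9 wild-type stage libraries and Cuffdiff tables of group FPKM, log2 fold changes, p-values and q-values. The authors' deposited peak list on mm10 gives 4934 peaks with a score of 50 to 3133. No counts were at hand, so depth is unknown and no counting interval is given. The stage table has 3 columns that match no sample used here, and these were not used. Its E15.5 columns name no kit. Their means lay at a median ratio of 1.03 to the Clontech wild-type values in the authors' deposited knockout table (5th to 95th percentile 0.880 to 1.19, genes at 20 FPKM or more). Letters a to c were given here in the order of the columns and pair nothing.

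From the FPKM, log2(FPKM + 1) was fitted with limma 3.58.1 (R 4.3.3, mean-variance trend) in one model over the 9 libraries, with 6 residual degrees of freedom. Genes needed 1 FPKM in 3 libraries, and p-values were adjusted over 11741 genes by Benjamini-Hochberg. The script was tested on simulated data. Left out were 14 genes with a failed estimate in a table. Knockout results are the authors' own. Peaks and motifs were matched to RefSeq GRCm38.p6 start sites with Python 3.11.15 and pandas 2.3.3. That table gives a start site for 68 of the 83 members, and 19 members overlap another protein-coding gene. The genes named were mainly drawn from those called in a comparison, the CCT, Hsp70, Hsp90 and Hsp60 members, called knockout members and members with a peak. Not every gene of these sets is named. Dnajc28, for example, was called lower in the turn between intervals and is not described further. Gene lists and members were chosen with earlier results of these data known. Alternatives were a pseudocount of 0.1, no filter or one of 5 FPKM, upper quartile scaling, median centring, no trend, each library left out, and the authors' deposited comparisons.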

Additional observations from a re-analysis of the deposited data

How the results depend on the processing

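No paired analysis was possible because no label ties the numbered library columns to the replicate numbers of the samples. Counts of called members ranged from 9 to 20 from E11.5 to E15.5, from 5 to 12 from E15.5 to PN, from 6 to 11 from E11.5 to PN and from 7 to 15 for the turn between intervals when 1 library was left out. The authors' deposited stage comparisons called 27 members (20 higher, 7 lower) and 23 members (9 higher, 14 lower), with no call of the present fit missing from either. From E11.5 to PN, upper quartile scaling left 6 calls and median centring 5. For NuGEN, q below 0.01 left 3 calls and a 2-fold minimum 1. With peaks of score 100 or more, 19 members had one near the start. The other planned settings kept each count within 1.5 times.

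Over 984 values of named genes under the 12 alternatives, 827 kept direction and side of the threshold. Of the rest, 112 lost a call, 16 gained one and 29 turned in sign, and the cause was not tested. The filter settings and the fit without a trend were not among these values. Without the filter on low values, Cct7 and Hspbp1 also lost their calls from E15.5 to PN. Dnaja3, Dnajb2 and Dnajc27 then lost theirs from E11.5 to PN. Under upper quartile scaling, Cct2 (-0.0860), Cct4 (-0.0237), Dnajb1 (-0.0482) and Hspe1 (-0.113) turned from E11.5 to E15.5, and Hsp90aa1 (-0.0381; -0.0194 under median centring) and Hspa5 (-0.00060) from E11.5 to PN. Leaving out 1 library gave ranges across 0 from E11.5 to E15.5 for Cct2 (-0.20 to 0.36), Cct4 (-0.37 to 0.51), Dnajb1 (-0.0115 to 0.39), Hsp90ab1 (-0.35 to 0.0501) and Hspe1 (-0.10 to 0.26). From E15.5 to PN it did so for Cct4 (-0.0347 to 0.35). From E11.5 to PN it did so for Cct4 (-0.27 to 0.61), Cct5 (-0.16 to 0.0585), Dnaja1 (-0.28 to 0.10), Hsp90aa1 (-0.19 to 0.35) and Hspa5 (-0.11 to 0.47). None of these was called. Depth is unknown, so low genes such as Dnajb4 at E11.5 cannot be given a counting error.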

Other observations

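Of the small heat shock genes outside the tested set, Hspb3, Hspb8 and Hspb9 reached 1 FPKM, each in 1 library. Hspb3, a small heat shock protein of muscle, had 3.74 FPKM in PN library c and at most 0.373 in each of the others. Hspb8 had 2.03 FPKM in E15.5 library a and at most 0.778 in each of the others. Hspb6, the only tested small heat shock gene, had 4.32, 2.36 and 1.70 FPKM at E11.5, 3.98, 11.46 and 3.39 at E15.5 and 4.60, 10.1 and 11.3 at PN, with no call. Dnajb13, an axonemal J protein of motile cilia, ranged from 0.0253 to 9.21 FPKM among the E11.5 libraries. In the authors' deposited Clontech table it had 2.05 FPKM in Pet-1-/- neurons and 7.26 in wild type (q = 0.0801).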
